A study of Mus musculus with 6 samples.

Results

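Of 23377 genes in the count table of Lgr5-positive hair follicle stem cells, 138 were silent in the wild type and on in the knockout. They were chosen by their raw counts in these same libraries: a sum of 0 or 1 over both wild-type libraries and at least 20 in each of the 2 knockout libraries. Of 151 genes that met these counts (0.646% of the table), 13 were dropped by symbol because they carry the prefixes of homeobox, forkhead, GATA and related families: Foxd2, Foxd2os, Foxf2, Gata2, Gata4, Hoxa11os, Hoxb13, Hoxc10, Hoxd10, Hoxd11, Hoxd13, Hoxd9 and Nkx2-3. Since the counts chose the 138 genes, their difference between genotypes is given below as a description, and no test supports it.

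The RNA came from hair follicle cells of C57BL/6 mice, 2 libraries of the genotype Ring1a/b-/- and 2 of wild type, each made from 3000 sorted cells by SMART-seq2, which copies and amplifies polyadenylated RNA. How and when Ring1a and Ring1b were removed, the age of the mice and whether the libraries came from separate animals are not given in the labels used here, so the spread between libraries may be technical. The knockout libraries held 4844381 and 7740945 counts and the wild-type libraries 2785843 and 3056593. Levels are CPM, counts scaled to a common library size with TMM factors. CPM is not corrected for transcript length, so an order of genes by CPM is an order of read share.

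Polycomb repressive complex 1 (PRC1) carries either Ring1a or Ring1b as its catalytic subunit. It adds ubiquitin to histone H2A at developmental genes and keeps them off in cells where they are not needed. Its target genes in mammals typically start in CpG islands, stretches of DNA rich in the dinucleotide CG, which is depleted elsewhere in the genome. Such genes can include signals, receptors, channels and transcription factors of nerve, muscle, heart and embryo. Whether PRC1 binds the genes described here in hair follicle stem cells was not tested. PRC1 activity was not measured in these libraries.

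The promoters of 6 of the genes are shown because CpG content is a feature that the counts did not use, and these 6 hold from 40 to 5 CpG. Each has the highest mean knockout CPM among the genes of its function class that have a RefSeq promoter sequence. The window runs from 250 bases before to 50 bases after the start. For a gene with several RefSeq starts, only the most upstream was used. Sequences are from RefSeq on GRCm38.p6, 5′ to 3′ on the strand of the gene, with each CG in capitals. Trank1, at chr9:111311489-111311788 (plus strand), holds 40 CpG, and Slco2a1, at chr9:103008237-103008536 (plus strand), holds 18. Tenm3, at chr8:48674641-48674940 (minus strand), holds 10, and Crabp1, at chr9:54764498-54764797 (plus strand), holds 17. Ecel1, at chr1:87156307-87156606 (minus strand), holds 6, and Pth1r, at chr9:110747096-110747395 (minus strand), holds 5.
Trank1: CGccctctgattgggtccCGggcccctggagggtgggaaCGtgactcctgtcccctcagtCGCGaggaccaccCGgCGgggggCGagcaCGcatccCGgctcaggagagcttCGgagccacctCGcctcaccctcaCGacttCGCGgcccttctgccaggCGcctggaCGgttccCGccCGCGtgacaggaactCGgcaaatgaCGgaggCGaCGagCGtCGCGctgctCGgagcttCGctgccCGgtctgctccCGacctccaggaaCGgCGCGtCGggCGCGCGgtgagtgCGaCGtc
Slco2a1: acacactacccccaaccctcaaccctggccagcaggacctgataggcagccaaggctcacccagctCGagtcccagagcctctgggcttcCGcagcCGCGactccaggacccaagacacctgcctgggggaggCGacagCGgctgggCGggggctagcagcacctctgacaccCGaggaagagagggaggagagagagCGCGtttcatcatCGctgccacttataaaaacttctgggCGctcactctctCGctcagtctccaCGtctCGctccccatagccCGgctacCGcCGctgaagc
Tenm3: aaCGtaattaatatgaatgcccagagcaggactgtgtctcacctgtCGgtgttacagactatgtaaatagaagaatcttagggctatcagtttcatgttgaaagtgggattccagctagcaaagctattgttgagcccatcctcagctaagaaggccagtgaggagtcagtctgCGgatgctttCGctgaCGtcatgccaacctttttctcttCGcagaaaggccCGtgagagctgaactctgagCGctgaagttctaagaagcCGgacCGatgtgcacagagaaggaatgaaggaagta
Crabp1: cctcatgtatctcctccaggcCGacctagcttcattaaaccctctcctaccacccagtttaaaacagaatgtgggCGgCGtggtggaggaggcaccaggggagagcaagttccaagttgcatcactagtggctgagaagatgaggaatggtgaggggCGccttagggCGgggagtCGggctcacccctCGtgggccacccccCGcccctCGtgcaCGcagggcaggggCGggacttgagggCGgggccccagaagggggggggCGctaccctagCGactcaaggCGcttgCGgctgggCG
Ecel1: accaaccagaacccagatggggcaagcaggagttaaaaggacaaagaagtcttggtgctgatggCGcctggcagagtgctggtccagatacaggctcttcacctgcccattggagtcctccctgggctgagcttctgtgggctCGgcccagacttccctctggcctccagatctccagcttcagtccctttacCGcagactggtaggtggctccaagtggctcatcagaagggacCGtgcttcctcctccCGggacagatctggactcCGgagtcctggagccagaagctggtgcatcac
Pth1r: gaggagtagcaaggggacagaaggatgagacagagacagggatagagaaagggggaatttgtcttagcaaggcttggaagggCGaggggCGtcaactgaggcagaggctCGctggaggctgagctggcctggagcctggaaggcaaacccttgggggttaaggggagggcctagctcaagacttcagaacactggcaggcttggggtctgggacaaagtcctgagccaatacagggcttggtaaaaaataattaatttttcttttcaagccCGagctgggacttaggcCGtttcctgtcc

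The choice of 20 counts and of a sum of 1 is a line through a continuous range. Just inside the knockout minimum lay 9930013L23Rik (20 and 28 counts), Nefh (20 and 30) and Darc (21 and 26), all with 0 wild-type counts. Just outside it lay B630019K06Rik (39 and 19), Syt13 (19 and 104) and Zfp423 (19 and 22). On the wild-type side, Trank1, Slco2a1 and Tenm3 had a sum of 1, while 49 genes that reached the knockout minimum had a sum of 2 and stayed outside. Igf2bp1, a fetal RNA-binding protein, was one of these, with 319 and 633 knockout counts against 0 and 2, and so were the transcription cofactor Lmo1 (129 and 221 against 0 and 2) and the immune protein Ly86 (171 and 141 against 1 and 1).

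The mirrored rule, at most 1 count over both knockout libraries and at least 20 in each wild-type library, found 1 gene. It was Srms, a tyrosine kinase, with 44 and 24 wild-type counts (16.7 and 8.01 CPM) against 1 and 0 in the knockout. The knockout libraries were the deeper pair, and with every library scaled to the smallest the rule found 79 genes and its mirror 3, before families were dropped. Of the 138 genes, 69 met the rule on scaled counts. Single libraries of 1 genotype also differed in this way: 270 and 254 genes had at most 1 count in one knockout library and at least 20 in the other, and 231 and 77 did so between the wild-type libraries. Between 1 wild-type and 1 knockout library, 524 to 845 genes were silent in the wild type and on in the knockout, and 36 to 151 the other way.

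**Figure D1:**
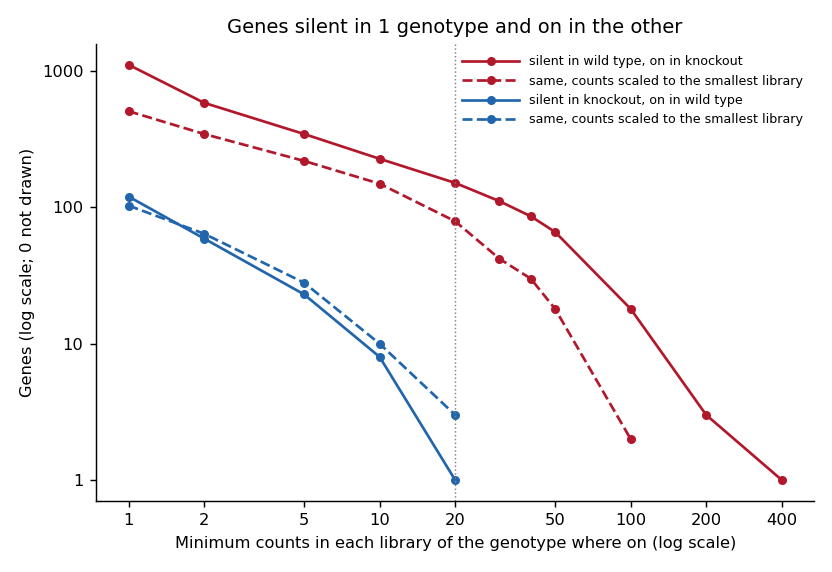
The number of genes silent in 1 genotype (y axis, log scale) against the minimum count required in each library of the other genotype (x axis, log scale), for raw counts (solid) and for counts scaled to the smallest library (dashed), before families were dropped. At the dotted line, a minimum of 20 counts, 151 genes were silent in wild type and on in the knockout, and 1 gene the reverse.

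In the wild type, 94 of the 138 genes had 0 counts, which allows a level of up to 0.533 CPM over both libraries. The other 44 had 1 count, 10 of them in wild-type library 1, where 1 count is 0.38 CPM, and 34 in wild-type library 2, where it is 0.334 CPM. Silent here means not detected at this depth. These limits, like the folds below, take in the error of counting alone, and PCR copies do not count as independent molecules.

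In the knockout the 138 genes were on at low levels. They ran from 4.04 to 91.1 CPM in library 1 (median 10.3) and from 2.61 to 57.3 CPM in library 2 (median 8.47), against medians of 53.9 and 56.5 CPM over the 13134 genes tested between genotypes. At least 10 CPM in both knockout libraries was reached by 42 genes, 20 CPM by 8 and 50 CPM by Trank1 alone. Summed over the 138 genes, the knockout libraries held 1899 and 1689 CPM and the wild-type libraries 3.8 and 11.3 CPM. The 10 highest held 23.4% and 20.9% of the knockout sums, so the reads were spread over many genes.

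For genes at 0 in the wild type only a lower bound on the fold can be given, against a floor of 3 counts over both wild-type libraries. The lowest bound was at least 6.21-fold higher (Fbxo2, a ubiquitin ligase subunit for glycoproteins), and the median bound was 18.4. Cilp2 was at least 67.5-fold and Crabp1 at least 56.9-fold higher. For genes with 1 wild-type count the ratio ran from 23 to 364. The highest ratio belonged to Trank1, with a 95% counting interval of 65.2 to 14402.

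Trank1 encodes a large protein with tetratricopeptide and ankyrin repeats. It had 420 counts in each knockout library (84.8 and 52.3 CPM) against 0 and 1 in the wild type. Without knockout library 1 or 2 its ratio was 294 or 477. Without wild-type library 1 it was 194, and without wild-type library 2, which held the single count, it was at least 56.8-fold higher. Trank1 was also the only one of the 138 genes past the threshold of edgeR's quasi-likelihood test (adjusted p under 0.05 over all genes), which called 0.0533% of 13134 tested genes higher and 0.00761% lower. All 138 had an unadjusted p under 0.05 and a higher level in the knockout, as did 8.47% of all tested genes. DESeq2 called 118 of the 138 higher, against 6.21% higher and 6.14% lower among 14502 genes. The authors' deposited table gives 118 of them an adjusted p under 0.05, against the same 6.21% of all genes called higher, with log2 fold changes from 4.52 to 9.42 over the 138. These counts restate the choice of genes, since the rule used the same contrast. The call of Trank1 was lost without knockout library 1 or 2 (edgeR adjusted p = 0.137 and 0.0774), when only genes reaching 1 CPM in 2 libraries were tested (0.0544) and in limma-voom (0.19).

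The knockout libraries differed between themselves. Of the 138 genes, 94 lay within 2-fold between the knockout libraries (68.1%, against 71.6% of 6967 tested genes over the same range of mean CPM). A level over 2-fold higher in library 1 was seen for 31 genes and in library 2 for 13. The minimum of 20 counts stands at 4.04 CPM in library 1 and 2.49 CPM in library 2, so the rule itself admits lower levels in library 2. The widest gaps towards library 1 were those of Isl2 (7.33-fold), Ecel1 (6.87-fold), Pnliprp1 (6.49-fold) and Pcp4 (5.29-fold). The widest towards library 2 were those of Sall3 (4.49-fold) and Vax2os (4.16-fold).

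**Figure D2:**
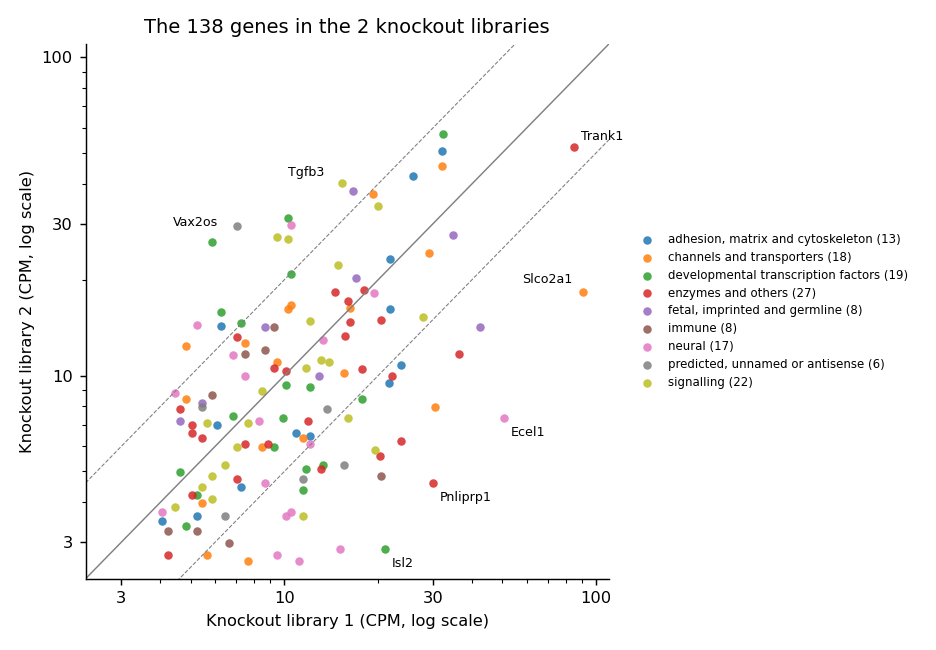
Level of each of the 138 genes in knockout library 1 (x axis, CPM, log scale) and knockout library 2 (y axis, CPM, log scale), coloured by function class, with the number of genes in each class in brackets. The solid line marks equal levels and the dashed lines a 2-fold difference; 94 genes lie between the dashed lines.

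By encoded function the genes fell into 9 classes, assigned by hand from what each gene is known to do. Signalling held 22 genes, developmental transcription factors outside the dropped families 19, channels and transporters 18, neural genes 17, and adhesion, matrix and cytoskeleton 13. Fetal, imprinted and germline genes numbered 8, immune genes 8, predicted, unnamed or antisense transcripts 6, and enzymes and others 27. The median over the genes of a class of the mean knockout level ran from 8.44 CPM for immune to 15 CPM for fetal genes. A mean given below is over the 2 knockout libraries.

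Among the 22 signalling genes 7 encode secreted factors. Tgfb3, a ligand of the TGF-beta family, stood at 15.3 and 40.3 CPM in the knockout libraries (76 and 324 counts) against 0 and 1 wild-type counts. Wnt7b, a Wnt ligand that acts in skin appendages, lung and kidney, stood at 20 and 34.1 CPM (99 and 274 counts) against 0 and 0. Sfrp2, a secreted protein that binds Wnt ligands, stood at 12.1 and 14.8 CPM against 0 and 0. The wild-type and knockout libraries did not overlap for any of these genes, as the rule requires, and Sfrp2 was the closest of the 3 between knockout libraries. The other secreted factors were lower: Bdnf, a neurotrophin, at 11.5 and 3.61 CPM, the growth factor Pdgfc at 7.07 and 5.98 CPM, and Thpo (thrombopoietin) and Nrtn (neurturin) at mean levels of 4.97 and 4.15 CPM.

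The 11 receptors had a median mean level of 12.2 CPM, against 7.56 CPM for the secreted factors. Pth1r, the receptor of parathyroid hormone and its related peptide, was at 27.9 and 15.3 CPM in the knockout against 0 and 1 wild-type counts. Gfra1, a co-receptor for GDNF, was at 10.3 and 26.9 CPM against 0 and 0. Bmpr1b, a type I receptor for bone morphogenetic proteins, was at 9.49 and 27.3 CPM against 0 and 0. Gfra1 and Bmpr1b were both higher in knockout library 2, whereas Pth1r was higher in library 1. Bai1 and Bai2 (now Adgrb1 and Adgrb2), adhesion receptors known from the brain, were at means of 12.7 and 11.6 CPM, the dopamine receptor Drd4 at 12.4, the VIP receptor Vipr1 at 12.2 and the ephrin receptor Epha8 at 11.1. Gfra4, a co-receptor of the GDNF family, Mst1r, a receptor tyrosine kinase, and Lrp3, of the LDL receptor family, ran from 5.84 to 8.72 CPM. The 4 intracellular members were Adcy1, a calcium-stimulated adenylyl cyclase, at 14.9 and 22.3 CPM, the cyclic nucleotide phosphodiesterase Pde3b, the G protein regulator Rgs14 and the small GTPase Rrad, the last 3 between 4.98 and 7.38 CPM.

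Of 13 adhesion, matrix and cytoskeleton genes, Tenm3 had the most reads. Tenm3, a teneurin that guides neuronal wiring by adhesion across synapses, was at 32.1 and 50.9 CPM (159 and 409 counts) against 0 and 1 wild-type counts. Cilp2, a cartilage matrix protein, was at 25.8 and 42.2 CPM against 0 and 0. Kif26b, an atypical kinesin of cell adhesion and kidney development, was at 21.8 and 23.3 CPM against 1 and 0. All 3 were above 20 CPM in both knockout libraries, and 10 of the 13 genes lay within 2-fold between them. Clstn3, a postsynaptic cadherin-like protein, was at 21.8 and 16.2 CPM, Scarf2, a scavenger receptor family member, at 23.6 and 10.8, and Dchs1, a giant cadherin of planar cell polarity, at 21.6 and 9.46. Chi3l1 (now Chil1), a chitinase-like secreted protein, and Adamts7, a matrix metalloprotease, had means of 10.3 and 9.29 CPM. The other 5 ran from 3.76 to 8.75 CPM: the actin bundler Espn, the inner ear matrix protein Coch, the cadherin Celsr3, the collagen Col24a1 and 9930013L23Rik (now Cemip), which acts in hyaluronan breakdown.

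Channels and transporters comprised 12 channel genes and 6 transporters, pumps included. Slco2a1, a prostaglandin transporter, was at 91.1 and 18.3 CPM (451 and 147 counts) against 0 and 1 wild-type counts. Slc30a3, which loads zinc into synaptic vesicles, was at 32.1 and 45.4 CPM against 0 and 1. Slc22a4, an ergothioneine and organic cation transporter, was at 29.1 and 24.2 CPM against 0 and 0. Slco2a1 had the highest level of any of the 138 genes in knockout library 1 but differed 4.98-fold between the knockout libraries, whereas Slc30a3 and Slc22a4 differed by less than 2-fold. The proton pump subunit Atp6v1b1 and the lactate transporter Slc16a1 had means of 13.5 and 13.2 CPM, and the fructose transporter Slc2a5 8.65 CPM.

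The channel genes are known from nerve, heart, sensory neurons and epithelia. Cacna1g, a T-type calcium channel, was at 19.2 and 37.2 CPM against 1 and 0 wild-type counts. Trpm8, the cold sensor of sensory neurons, was at 16.2 and 16.3 CPM (80 and 131 counts) against 0 and 0. Trpm8 was almost equal in the knockout libraries, while Cacna1g was higher in library 2. Of the other channels 9 had means from 4.2 to 12.9 CPM: the potassium channels Kcnh3, Kcnh2, Kcna1, Kcnd3 and Kcng4, the epithelial sodium channel subunit Scnn1b, the nicotinic receptor subunit Chrna4, the pacemaker channel Hcn4 and the heat and capsaicin sensor Trpv1.

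The 17 neural genes act in axons, synapses and neuronal metabolism. Ecel1, a neuronal endopeptidase-like protein, was at 50.5 and 7.34 CPM (250 and 59 counts) against 0 and 0 wild-type counts. Nrn1, which promotes neurite growth, was at 10.5 and 29.8 CPM against 0 and 0. Dpysl4, of the collapsin response mediator family, was at 19.4 and 18.2 CPM against 0 and 0. Ecel1 was higher in library 1, Nrn1 in library 2, and Dpysl4 was alike in both. Of the 17 genes, 15 had 0 wild-type counts, and 9 lay within 2-fold between the knockout libraries. C77370 (now Nexmif), a neurite extension factor, was at 13.3 and 12.9 CPM, and Map7d2 (microtubule binding), Mgat5b (a brain glycosyltransferase), Dclk3 (a doublecortin-like kinase) and Pcp4 (a calmodulin regulator of Purkinje cells) had means of 9.0 to 9.84 CPM. The other 9, with 3.89 to 8.71 CPM, were Nat8l, which makes N-acetylaspartate, the synaptic proteins Erc2, Rab3b, Nxph4 and Shisa7, the neurofilament Nefh, Map6d1, Khdrbs3 and Rnf182.

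Markers of Merkel cells, touch-sensing cells of the skin with neuronal genes, summed to 96.3 and 123.5 CPM in the knockout libraries and to 9.11 and 37.4 CPM in wild type. Of the 10 with a count, 5 were higher in both knockout libraries than in either wild-type library (Krt8, Krt18, Isl1, Sox2 and Piezo2), as were 22.4% of all genes with a count. Most of the sum was Krt8 (23.2 and 49.5 against 4.56 and 20 CPM) and Krt18 (39.4 and 41 against 3.42 and 5.34 CPM), keratins of simple epithelia in general. Isl1 was at 13.5 and 12.1 CPM in the knockout against 0 and 3.67, and Piezo2 at 16.2 and 12.8 against 0 and 2.67. Sox2 was at 2.22 and 4.98 CPM against 0 and 0. Atoh1 was at 0 and 0.871 CPM in the knockout against 0 and 0.667. Krt20 was at 0.606 and 0.124 CPM against 0 and 1.67, and Cck at 0 in all 4 libraries. The 10 Schwann cell and nerve markers summed to 103 and 122 against 88.1 and 119 CPM, with Sox10 and Pmp2 at 0 throughout. No marker of either list is among the 138 genes. The part of these markers in the neural levels was not tested. In bulk RNA more cells of a type and more RNA per cell cannot be told apart.

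Fetal, imprinted and germline genes numbered 8. Crabp1, which binds retinoic acid in the embryo, was at 34.7 and 27.6 CPM (172 and 222 counts) against 0 and 0 wild-type counts. Zdbf2, an imprinted gene expressed from the paternal allele, was at 42.4 and 14.2 CPM against 0 and 0. Peg10, an imprinted gene of retrotransposon origin needed in the placenta, was at 17.0 and 20.3 CPM against 0 and 1. Crabp1 and Peg10 lay within 2-fold between the knockout libraries and Zdbf2 did not. The germ cell genes were Ddx43, an RNA helicase, at 16.6 and 38 CPM, Tdrkh, a piRNA pathway protein, at 12.9 and 9.96 CPM, and Smc1b, a cohesin subunit of meiosis, at 4.64 and 7.22 CPM. Imprinted Peg12 was at 5.45 and 8.22 CPM. Igf2os, at 8.68 and 14.2 CPM against 0 and 0, overlaps Igf2, whose 697 and 1502 knockout counts against 7 and 13 cannot be told apart from it without strand.

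The 19 developmental transcription factors lie outside the dropped families. Osr2, of palate and limb, was at 10.5 and 20.9 CPM (52 and 168 counts) against 0 and 0 wild-type counts. Tead4, a Hippo pathway factor of the trophectoderm, was at 17.8 and 8.47 CPM against 0 and 0. Osr2 was higher in knockout library 2 and Tead4 in library 1. Nfatc4, a calcium-regulated factor, was at 10.3 and 31.2 CPM, Sall3 at 5.86 and 26.3, and Isl2, of motor and sensory neurons, at 21.0 and 2.86, so that these 3 differed over 2-fold between knockout libraries. Prdm6, of smooth muscle, and Vax2, of the ventral eye, had means of 11 and 10.9 CPM. A further 11 ran from 4.1 to 10.7 CPM, among them Sim2, Emx2, Lyl1, Barx1, Sp8, Twist1, Nr2f1, Hmx1, En1 and Glis1, known from head, brain, blood, stomach, limb, mesoderm and ear.

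The immune class, added after the genes were seen, held 8 genes. Clec4n, a C-type lectin of myeloid cells, was at 20.4 and 4.85 CPM against 0 and 1 wild-type counts. Alox15, a lipoxygenase of macrophages and eosinophils, was at 9.29 and 14.2 CPM against 0 and 0. Apobec3, an antiviral cytidine deaminase, was at 8.68 and 12 CPM against 0 and 0. AW112010, an immune transcript, Batf3, a dendritic cell factor, Cd160, of natural killer and T cells, Gpr171 and Darc (now Ackr1), a chemokine receptor of red cells and venules, had means of 3.74 to 9.59 CPM. Leukocyte markers summed to 1702 and 715 CPM in the knockout libraries and to 305 and 261 CPM in wild type, and 13 of the 25 with a count were higher in both knockout libraries than in either wild-type library, against the 22.4% of all genes with a count. Itgax was the 1 marker lower in both knockout libraries than in either wild-type library, and Cd207 was at 0 in all 4. Ctss was at 137 and 73.3 CPM in the knockout against 6.45 and 8.34, and F13a1 at 113 and 65.1 against 3.42 and 5.34. By edgeR's quasi-likelihood test both were called higher (adjusted p = 0.0444 each), while limma-voom called no gene. The T cell markers Cd3e and Cd3g stayed below 1 CPM throughout. The part of the leukocyte markers in the immune genes was not tested. Without this class 130 genes remained in the other classes.

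The remaining 27 enzymes and others, after Trank1, were led by Susd3, a membrane protein with a sushi domain, at 36.3 and 11.7 CPM against 0 and 0 wild-type counts. Amn (amnionless), part of the vitamin B12 receptor of gut and kidney, was at 18 and 18.5 CPM against 0 and 0. Pnliprp1, a pancreatic lipase relative, was at 29.9 and 4.61 CPM against 0 and 0. Amn was nearly equal in the knockout libraries and Pnliprp1 was not. Tmem44, Fbxl7 (an F-box protein), Rmdn2 and Clec2l had means of 16.1 to 17.7 CPM, and the other 19 of 3.49 to 15.4 CPM. Those 19 were Efcab1, Ust, Fam189a2, Nxpe5, Ccdc158, Fbxl21, Nup62cl, Lonrf2, Bend7, Sidt1, Bik, Tmem178, Elovl2, Rprml, Cdkn2a, Ankrd34a, Entpd3, Zfp697 and Fbxo2. Cdkn2a, which encodes the cell cycle inhibitor p16 and the p53 activator Arf, was at 5.45 and 6.35 CPM against 0 and 0. Among the 6 predicted, unnamed or antisense transcripts Vax2os was at 7.07 and 29.4 CPM and 4930563F08Rik at 13.7 and 7.84, and the others were AI593442, Gm4980, Gm1673 and Fam219aos.

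**Figure D3:**
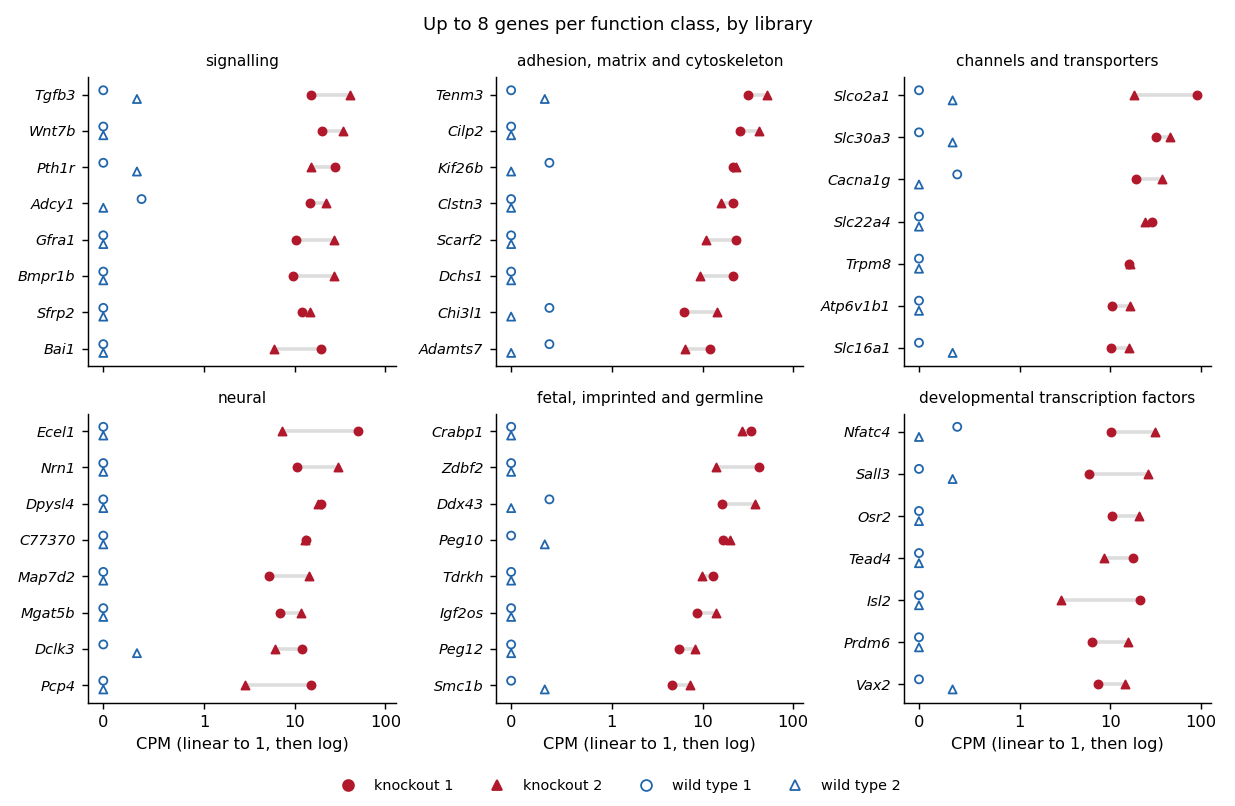
Level in each library (x axis, CPM, linear up to 1 and logarithmic above) of up to 8 genes with high knockout reads in each of 6 function classes; filled symbols are knockout libraries, open symbols wild-type libraries, and grey bars join the knockout libraries. Every knockout point lies above 1 CPM, while wild-type points lie at 0, 0.38 or 0.334 CPM.

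Other markers of the sample were as follows. The 11 follicle stem cell markers summed to 2116 and 1836 CPM in knockout libraries and to 1946 and 2054 CPM in wild type. Of these, Lgr5, Nfatc1 and Col17a1 (3 of 11) were higher in both knockout libraries than in either wild-type library, against 22.4% of all genes with a count. Krt15, Krt14 and Cd34 (3 of 11) were lower, and the share of all genes lower in this way was not computed. Lgr5 was at 251 and 240 CPM in the knockout against 140 and 194, and Krt15 at 303 and 250 against 417 and 362. Nfatc1 was at 38.8 and 34.0 CPM in the knockout against 0 and 2.34, and Cd34 at 15.3 and 2.61 against 24.3 and 20.4. Fibroblast, endothelial and melanocyte sums were no higher in the knockout than in the wild type: 693 and 520 against 993 and 1208, 270 and 246 against 338 and 420, and 187 and 133 against 194 and 197 CPM. Skeletal muscle markers set single libraries apart, at 838 and 148 CPM in knockout libraries and 42.9 and 2201 CPM in wild type. Of the targeted genes, Ring1 (Ring1a) stood at 15.5 and 18.4 against 31.9 and 29.4 CPM, and Rnf2 (Ring1b) at 151 and 153 against 144 and 87.8 CPM. Neither checks the labels, since whole-gene counts can include transcripts that lack the deleted part.

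Whole gene families were listed by symbol pattern, with earlier results of these data known. The genes that meet the count rule were taken out of them, since those are below 1 CPM in wild type by choice. The rule took out 11 ion channels, 16 other developmental regulators, 7 receptors, 6 secreted signals, 6 neuronal genes, 5 transporters, 3 adhesion genes and 2 fetal genes. Of the other ion channels, 71 of 256 reached 1 CPM in both wild-type libraries and 84 in both knockout libraries. The same counts were 47 and 58 of 136 for neuronal and synaptic genes, 13 and 19 of 42 for fetal and imprinted growth genes and 91 and 114 of 242 for other developmental regulators. They were 70 and 81 of 178 for adhesion genes, 94 and 102 of 256 for secreted signals, 119 and 128 of 283 for signal receptors and 243 and 272 of 454 for membrane transporters. Over all 23226 genes outside the rule, 12400 reached 1 CPM in both wild-type libraries and 12957 in both knockout libraries, which were the deeper pair.

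**Figure D4:**
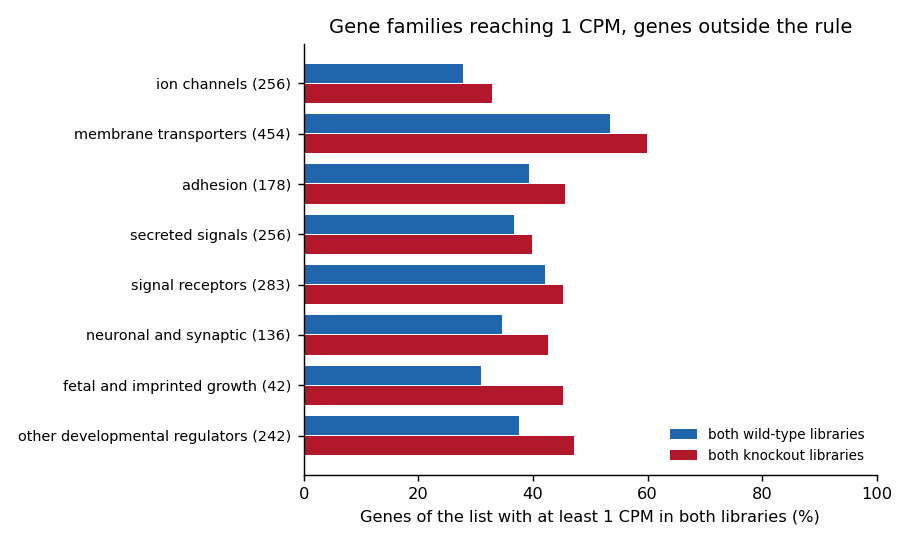
Share of each gene family (y axis, number of genes in brackets) with at least 1 CPM in both libraries of a genotype (x axis, percent); blue bars are wild type and red bars knockout. Genes that meet the count rule are left out; the counts were 94 and 102 of 256 for secreted signals and 13 and 19 of 42 for fetal and imprinted growth genes.

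By edgeR's quasi-likelihood test (adjusted over all genes) few family members passed. Igf2, a fetal growth factor in the secreted and fetal lists, rose from 2.66 and 4.34 to 141 and 187 CPM, a log2 fold change of 5.53 ± 0.392 (SE, adjusted p = 0.00467). Igf2bp1 rose from 0 and 0.667 to 64.4 and 78.8 CPM (edgeR adjusted p = 0.0431), a ratio of 206 (95% counting limits 57 and 1707). That ratio rests on 2 wild-type counts: its limits were 30.3 and 908 without wild-type library 1, and it was at least 64.4-fold higher without library 2. Runx1, a blood and hair follicle regulator, rose from 34.9 and 62.1 to 279 and 254 CPM (2.45 ± 0.289, edgeR adjusted p = 0.0431). Without knockout library 1 the edgeR adjusted p was 0.00708 for Igf2, 0.088 for Igf2bp1 and 0.108 for Runx1. Without knockout library 2 it was 0.0537, 0.196 and 0.122, so none of the 3 passed. In these fits the lone knockout library is assumed to vary like the wild-type pair. With at least 1 CPM in 2 libraries as the filter, Igf2bp1 (0.0544) and Runx1 (0.0557) also missed the threshold, and in limma-voom the adjusted p was 0.154 for Igf2, 0.176 for Igf2bp1 and 0.145 for Runx1. No ion channel, transporter, adhesion gene, receptor or neuronal gene passed in either direction outside the rule, and no family member passed as lower. At an unadjusted edgeR p under 0.05, 133 genes of the lists outside the rule were higher and 36 lower. DESeq2 called more outside the rule: 8 of 117 ion channels higher and 1 lower, 10 and 1 of 78 neuronal genes, 7 and 0 of 20 fetal genes and 28 and 4 of 138 developmental regulators. It also called 35 higher and 15 lower of 307 transporters, 12 and 4 of 96 adhesion genes, 12 and 1 of 141 secreted signals and 9 and 4 of 156 receptors, against 770 and 891 of 14351 genes in all. The median log2 fold change of the edgeR-tested genes outside the rule was 0.522 for ion channels, 0.586 for neuronal genes, 1.39 for fetal genes and 0.268 for developmental regulators. It was 0.243 for transporters, 0.4 for adhesion genes, 0.471 for secreted signals and 0.185 for receptors, against 0.0242 over all such genes.

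A RefSeq promoter was at hand for 102 of the 138 genes (73.9%). Only the most upstream start of a gene was scored, which need not be the start in use in these cells. A window was counted as CpG rich at a ratio of observed to expected CG of at least 0.6 and a GC content of at least 50%. By this measure 54 of 102 were CpG rich (52.9%, Wilson 95% interval 43.3 to 62.3). The CpG count ran from 1, as in Trpm8, to 56, as in Epha8, with a median of 19. Among the promoters printed above only that of Trank1 met both limits: Slco2a1 fell short at a ratio of 0.599 and Crabp1 at 0.543, Tenm3 by its GC content of 47.3%, and Ecel1 and Pth1r by ratios of 0.23 and 0.25. By class, 15 of 24 enzymes and others, 8 of 11 transcription factors, 7 of 16 signalling genes, 6 of 14 channels and transporters, 6 of 11 adhesion genes, 5 of 10 neural genes, 4 of 6 fetal genes, 2 of 5 unnamed transcripts and 1 of 5 immune genes were CpG rich.

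Of protein-coding genes alone, 53.5% of 99 in the set were CpG rich, against 69.2% of 10004 tested genes and 12.3% of 5179 genes that were silent in wild type and outside the rule. Among protein-coding genes with a wild-type sum of 0 or 1, the share was 10.0% where the smaller knockout count was 0, 24.8% at 1 to 4 counts, 45.2% at 5 to 19 and 54.2% at 20 or more, with the dropped families included in this split. The median gene span was 26.2 kb for the protein-coding genes of the set, 24.0 kb for tested genes and 7.91 kb for the other wild-type-silent genes. Over the same split by smaller knockout count the median span was 6.51, 21.0, 22.9 and 21.9 kb. The Wilson intervals of the CpG-rich share overlapped between 5 to 19 counts (37.0 to 53.6%) and 20 or more (44.8 to 63.3%). The interval at 1 to 4 counts (21.2 to 28.8%) lay below both. The bins use the same knockout counts as the rule, and the part of gene span in these shares was not tested. Genes are not replicates of a condition, and no p is given.

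**Figure D5:**
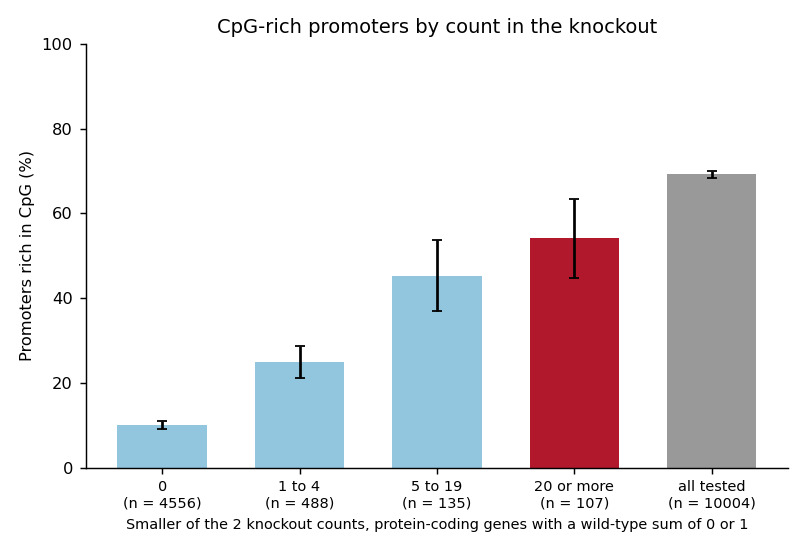
Share of RefSeq promoters rich in CpG (y axis, percent, with Wilson 95% intervals) among protein-coding genes silent in wild type, split by the smaller of their knockout counts (x axis), with all tested genes in grey. The share is 10.0% at 0 knockout counts and 54.2% at 20 or more, dropped families included.

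The 138 genes lay on 20 chromosomes. In 4 places adjacent genes of the count table were both in the set: Trank1 with Dclk3, Gm1673 with Nat8l, Vax2os with Vax2, and Vax2 with Atp6v1b1, which makes 7 genes in all. Before families were dropped there were 7 adjacent pairs, with Hoxd11 and Hoxd10, Hoxd10 and Hoxd9, and Foxd2 and Foxd2os added. The number of pairs that random placement would give was not computed. Trank1 and Dclk3 had 420 and 420 against 60 and 49 knockout counts. Vax2os overlaps Vax2, and both were higher in knockout library 2 (236 against 35 and 117 against 36 counts). For 24 genes the span overlaps another gene of the table, and for 9 of these the partner had more counts in both knockout libraries: Igf2os with Igf2, 4930563F08Rik with Auts2, Kcnh3 with Mcrs1, Lyl1 with Nfix, Smc1b with Fam118a, Nefh with Ap1b1, Gpr171 with Med12l, Apobec3 with Cbx7 and Darc with Cadm3. Whether counting used strand is not stated in the labels, so reads of such pairs could be shared. The partners differed in the wild type. Mcrs1 (410 and 307 counts), Nfix (679 and 873), Ap1b1 (571 and 515), Auts2 (154 and 176), Fam118a (147 and 99), Med12l (43 and 64) and Cbx7 (22 and 44) were read there, while Igf2 (7 and 13) and Cadm3 (0 and 3) were nearly silent there and higher in the knockout, as were Igf2os and Darc.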

How the data were processed

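Per the submitters' processing notes, the build was mm9 and the tools were TopHat2 2.1.1, HTSeq 0.7.2, bcl2fastq 2, MACS2 2.1.1, Bowtie 1.2.2, DESeq2 (3.7 there, no DESeq2 release) and Picard 1.62. Their settings, the gene annotation and the use of strand are not stated there. The authors deposited whole-number counts per gene symbol, without normalization, for 4 libraries. Their comparison table holds log2 fold changes of knockout over wild type and adjusted p-values, per the file headers. Other deposited tables and the Ring1b peak lists were not used here.

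The 138 genes were taken from the raw counts by the stated rule. Genes and gene lists were chosen with earlier results of these data known. The test of the counts used edgeR 4.0.16 under R 4.3.3 (13134 genes after default filterByExpr; TMM; robust quasi-likelihood fit; genotype as the only term; Benjamini-Hochberg adjustment over all tested genes, threshold 0.05), with DESeq2 1.42.0 and limma 3.58.1 as alternatives. Steps were tested on simulated data. For edgeR the changed genes there had higher mean levels than most of the 138, so that run does not cover genes near 0 in wild type. CPM uses TMM-scaled library sizes; SE is the fitted log2 change divided by the root of F.

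Genes named are Trank1 and up to 8 per function class by mean knockout CPM (2 for unnamed transcripts). List members past the threshold and up to 3 genes on each side of a limit were also named. Further genes of a class, and single cell type markers, were named after their values were seen. A few of the 138 are not reported by name. Promoters and names come from RefSeq tables on GRCm38.p6 (131 symbols matched directly, 7 by an older symbol); these coordinates are not on the build of the counts. Summaries were made in Python 3.11.15. The labels do not say whether replicate numbers pair libraries, and the main fit did not pair them.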

Additional observations from a re-analysis of the deposited data

How the results depend on the processing

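The rule gave 210 genes with a wild-type sum of up to 3, 76 with a knockout minimum of 40 counts and 69 with counts scaled to the smallest library. It gave 273 to 390 when 1 library was left out; each of these sets held all 138, because the rule then asks less. The share of CpG-rich promoters was 41.2% at an observed to expected ratio of 0.75. In edgeR, 7 genes were called higher and 1 lower (gene lists: 3 and 0, also without the genes that meet the count rule). No low-count filter gave 455 higher and 347 lower (lists 103 and 19), and at least 1 CPM in 2 libraries gave 1 and 0 (lists 1 and 0). DESeq2 gave 901 and 891 (lists 171 and 30). limma-voom gave 0 and 0 (779 and 1177 at an unadjusted p under 0.05; lists 0 and 0, with 146 and 41 unadjusted). Leaving out 1 library gave 0 to 43 higher and 0 to 17 lower (lists 0 to 12 and 0 to 1). A fit with the replicate number as a block gave 213 and 203 (lists 52 and 11). The deviations of same-numbered libraries from their group means had a correlation of -0.14 over 13134 genes. With 2 libraries a group this is the same value for both numbers. It cannot decide whether the numbers pair libraries, and the labels do not say. A crossed pairing, added after seeing the data, gave 8 higher and 0 lower (1099 lower unadjusted; lists 4 and 0). Outside the alternatives that leave out samples or filter genes, the cause of these moves was not tested. On plain library totals the mean knockout levels of Trpm8, Amn and C77370 moved by more than their spread, to 16.7, 18.8 and 13.5 CPM, and the other 63 named genes kept theirs within it. Ring1b peaks at these genes were not analysed, since no mm9 annotation was used here. Depth limits the wild-type side: with 2785843 and 3056593 counts a gene below 0.533 CPM can go unseen.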

Other observations

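By chromosome, 15 of the 138 genes lay on chromosome 9 (10.9%, against 5.82% of tested genes) and 13 on chromosome 3 (9.42%, against 4.87%), while 4 lay on chromosome 2 (2.9%, against 7.72%). The dropped genes Hoxd9, Hoxd10 and Hoxd11 also lie on chromosome 2, so dropping families by symbol lowered its share. These shares are a description, and genes are not independent samples. Of 8429 genes with at most 1 wild-type count, 1.64% are in the set. By list, the share was 12.3% for other developmental regulators, 10.0% for neuronal and synaptic genes and 9.09% for fetal and imprinted growth genes. It was 7.86% for ion channels, 6.09% for signal receptors, 5.08% for secreted signals, 3.8% for adhesion genes and 3.33% for membrane transporters. Each list held only 2 to 16 genes of the set. These shares rest on the counts that chose the set, so they describe it and test nothing.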
